A study of Mus musculus with 14 samples.

Results

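Expression of 42 genes of the skeletal muscle sarcomere and its calcium release machinery was examined in mouse skin and in cultured fibroblasts. The genes were taken by symbol from a list of 13 fast fibre genes, 5 slow fibre genes, 10 genes of the filaments and the Z-disc, 9 genes of calcium handling and 5 genes of energy supply, oxygen binding and stress response. All 42 of the 19532 named genes on the arrays were measured, on 79 probes. A single probe stood for 23 of the genes, and several probes for the other 19. A gene's value was the mean of its probes.

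The study used 14 Agilent arrays, each comparing the Cy5-labelled RNA of 1 sample with a Cy3-labelled universal mouse reference RNA. Skin came from 4-week-old female mice, 4 labelled Tsk2 and 4 labelled WT, and the series title writes the mutant as Tsk2/+, with a mutation in Col3a1, the gene for type III collagen. The fibroblasts all carried a Col3a1 knockout and had been transfected with Tsk2 Col3a1 or with WT Col3a1, with 3 arrays each. Replicates of the cells transfected with WT Col3a1 were labelled 1, 3A and 3B, and those with Tsk2 Col3a1 were labelled 1, 2 and 3. The labels give no strain and do not say that the transfected samples were separate cultures, so their p-values measure the spread between samples, which may be technical. The design text counts 3 mice per genotype where the labels hold 4, and all 4 were used. RNA was extracted with a Clontech kit from fibroblasts and with a Qiagen kit for fibrous tissue from skin, so tissue and kit cannot be told apart between the systems. Markers of epidermis averaged from 3.99 to 5.34 on the skin arrays and from 0.27 to 0.63 in fibroblasts, on the log2 scale used throughout. Markers of dermal fibroblasts averaged from 0.67 to 1.12 in the cultured cells.

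In striated muscle, myosin thick filaments slide along actin thin filaments that are anchored in the Z-disc, and troponin on the thin filament lets them do so when calcium rises. The calcium comes from the sarcoplasmic reticulum, whose release channel, the ryanodine receptor, is opened at junctions with the surface membrane by a voltage-sensing calcium channel. Fast and slow fibres build this apparatus from different myosin, troponin and calcium pump genes. Mouse skin carries a thin sheet of skeletal muscle, the panniculus carnosus, below the dermis and its fat. The labels do not say how much of this sheet the skin samples held. In total skin RNA, more muscle cells and more RNA per muscle cell cannot be told apart.

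Most muscle genes stood far higher in skin than in cultured fibroblasts, in both genotypes. In limma's fit over all 14 arrays, 40 of the 42 genes were higher in skin than in fibroblasts at an adjusted p under 0.05, with 29.2% of all genes called higher. One gene, Tnnc1, was lower, against 24.9% of all genes. The median difference of the 42 genes was 4.32 on the log2 scale, against −0.0029 over all genes. In 36 genes every skin array lay above every fibroblast array, where 17.9% of all genes did so, and in Tnnc1 every skin array lay below, as in 14.9% of all genes. The largest differences were those of Myl1, a fast myosin light chain, at 8.21 ± 0.19 (SE), Tnnt3, fast troponin T, at 7.57 ± 0.30, and Tnni2, fast troponin I, at 6.97 ± 0.23. Myot, which encodes the Z-disc protein myotilin, differed by 6.72 ± 0.91, and Pvalb, the calcium buffer parvalbumin of fast fibres, by 6.45 ± 0.27. Adjusted p in limma was 6.04e-12, 3.59e-10, 7.95e-11, 3.01e-05 and 4.76e-10 in the same order. All 6 fibroblast values of Myot and of Pvalb were repeated values, shared by 50 or more probes of an array, which mark dim probes, and Myot was at exactly 0 on WT skin replicate 2, so the place of these differences among the 42 is uncertain.

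The smallest differences between skin and fibroblasts belonged to slow fibre and junction genes. Tnnc1, the troponin C of slow and cardiac muscle, was −1.87 ± 0.18 (SE, limma adjusted p = 1.37e-06), with skin arrays from −2.16 to −0.85 and fibroblast arrays from 0.12 to 0.75. Myh7, the slow myosin heavy chain, differed by 0.41 ± 0.57 and did not pass (limma adjusted p = 0.585). Jph2 and Jph1 encode junctophilins, which hold the reticulum to the surface membrane, and differed by 0.78 ± 0.17 and 1.26 ± 0.22 (limma adjusted p = 0.00148 and 0.00026). Tnni1, slow troponin I, differed by 1.04 ± 0.27 (limma adjusted p = 0.00478). Over the 42 genes, repeated values made up 50% or more of the fibroblast values in 20 genes and none in 12. In the 5 genes named here they were fewer than 50% of the fibroblast values.

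**Figure D1:**
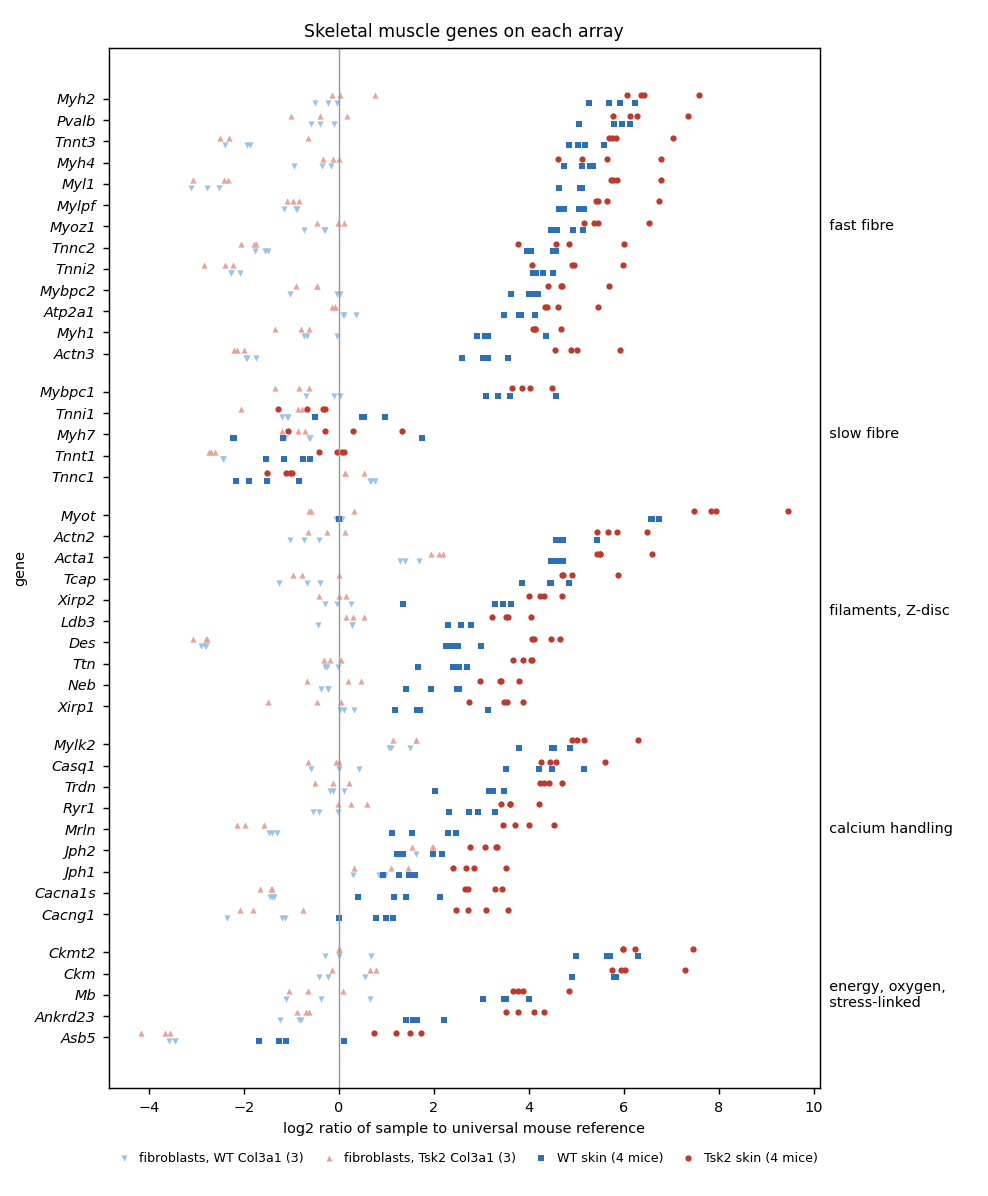
Log2 ratio of sample to reference (horizontal axis) for each of the 42 genes (vertical axis, grouped by role and ordered by mean in WT skin) on every array. Circles are the 4 Tsk2 skin arrays, squares the 4 WT skin arrays and triangles the 6 fibroblast arrays. In 36 genes all skin arrays lie above all fibroblast arrays, and in 25 genes the Tsk2 skin arrays lie above the WT skin arrays without overlap.

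In skin, the muscle genes lay higher in Tsk2 mice than in WT mice as a group. Of the 42 genes, 12 (28.6%) were higher at an adjusted p under 0.05 in limma and 0 were lower, where 1.91% of all genes were called higher and 0.998% lower. The difference was above 0 in 41 of 42 genes, with a median of 0.93 on the log2 scale against 0.03 over all genes. Unadjusted, p was under 0.05 for 29 of the 42 genes and for 4503 of all 19532 genes tested. In 25 genes (59.5%) the groups did not overlap, all of them higher in Tsk2 skin, where 9.33% of all genes were higher and 6.75% lower in this way. The 42 genes were chosen with earlier results of these data known, so these shares are not independent of that choice. By role, 6 of 9 calcium genes passed, 3 of 10 filament and Z-disc genes, 2 of 5 energy and stress genes, 1 of 13 fast fibre genes and 0 of 5 slow fibre genes.

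The calls depended on which mice were included. Leaving out 1 mouse kept every one of the 42 differences on its side of 0, and the median of the 42 genes lay between 0.78 and 1.05. Some differences nearly vanished, however. Without Tsk2 replicate 2, Myh4 differed by 0.0019, Casq1 by 0.08 and Tnnc2 by 0.12. The number of genes past the threshold fell to 0 when any of Tsk2 replicates 2, 3 and 4 or WT replicates 1, 2 and 3 was left out. In each of those 6 fits limma called 0 genes on the whole array, while the unadjusted p was under 0.05 for 3473 to 4145 of all genes. The fit that lacked Tsk2 replicate 1 called 9 of the 42 genes, and the fit that lacked WT replicate 4 called 15 higher and 1 lower. With quantile normalization 25 genes passed, and with 1 fit over all 14 arrays 22 did.

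**Figure D2:**
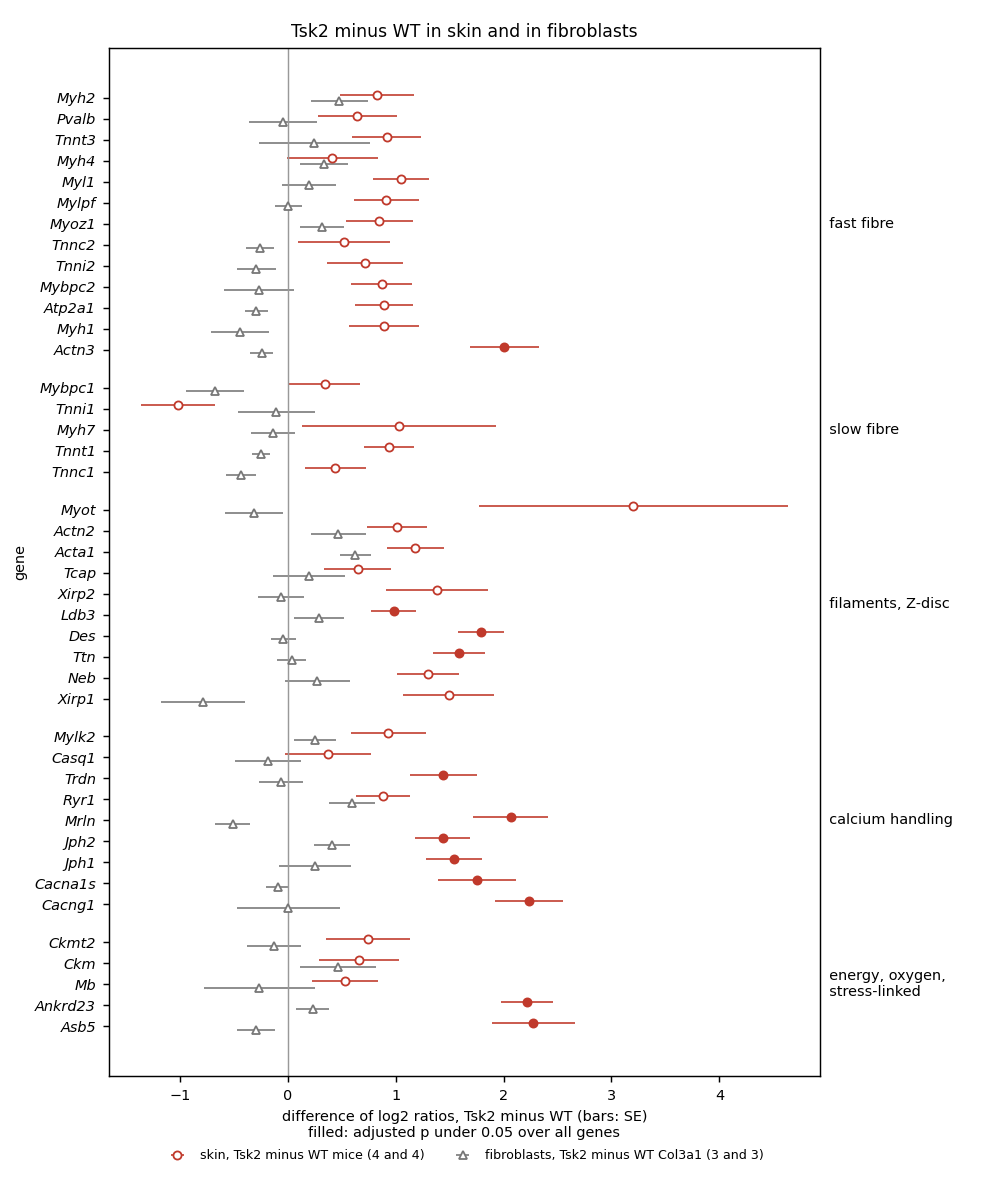
Difference of mean log2 ratios, Tsk2 minus WT (horizontal axis, bars are SE), for each of the 42 genes (vertical axis, grouped by role), in skin as circles and in fibroblasts as triangles. Filled symbols passed an adjusted p under 0.05 over all genes. The 12 filled circles lie between 0.98 and 2.27, and no triangle is filled.

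Among the roles used here, calcium handling genes held the largest share of calls. Their median difference was 1.44, and in 8 of the 9 genes the groups did not overlap. In a further list of 19 measured excitation and calcium genes, taken up below, 4 passed and the median was 0.85. A high share of calls was thus not shared by that list. Atp2a1 and Pvalb, which also handle calcium, were counted as fast fibre genes, and neither passed. Values below are log2 ratios to the reference, in the order of replicates 1 to 4. Cacng1, the gamma subunit of the muscle calcium channel, read 2.47, 2.72, 3.10 and 3.57 in Tsk2 skin and 0.77, 0.99, −0.01 and 1.14 in WT skin. All 4 Tsk2 values lay above all 4 WT values, and the difference was 2.24 ± 0.31 (SE), or 4.72-fold (limma adjusted p = 0.0229). Cacna1s, the pore-forming, voltage-sensing subunit of that channel, read 2.71, 3.44, 2.65 and 3.28 in Tsk2 skin and 1.15, 1.41, 0.39 and 2.12 in WT skin. The WT values were spread more widely than the Tsk2 values, again with no overlap, and the difference was 1.75 ± 0.36 (limma adjusted p = 0.0456). With exact zeros taken as missing, Cacna1s differed by 1.40 and no longer passed (limma adjusted p = 0.126). Its mean on WT replicate 2 was then taken over fewer probes. Its 2 probes differed by 1.73 and 1.78. Over probes with no repeated, zero or missing value in skin it differed by 1.78 (limma adjusted p = 0.00887). That alternative was chosen after the data were seen.

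Mrln encodes myoregulin, a small membrane protein that inhibits the calcium pump of the reticulum in skeletal muscle. It read 3.71, 4.52, 3.45 and 4.00 in Tsk2 skin and 1.53, 2.30, 1.12 and 2.45 in WT skin. The lowest Tsk2 array lay about 1 log2 unit above the highest WT array, and the difference was 2.07 ± 0.35, or 4.19-fold (limma adjusted p = 0.029). Jph1 read 2.40, 2.83, 2.67 and 3.52 in Tsk2 skin and 1.47, 0.93, 1.27 and 1.61 in WT skin. The highest value was that of Tsk2 replicate 4, and the groups differed by 1.54 ± 0.26 without overlap (limma adjusted p = 0.0292). Jph2 read 3.30, 3.33, 2.75 and 3.07 in Tsk2 skin and 1.35, 2.16, 1.21 and 1.99 in WT skin. Its difference was 1.44 ± 0.25, also without overlap (limma adjusted p = 0.0319).

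Trdn encodes triadin, which ties the calcium-binding protein calsequestrin to the ryanodine receptor. It read 4.23, 4.70, 4.42 and 4.31 in Tsk2 skin and 3.47, 2.02, 3.24 and 3.15 in WT skin, with WT replicate 2 far below the others. Of its 4 probes 2 were listed at exactly 0 on that array. The difference was 1.44 ± 0.31 (limma adjusted p = 0.0481), and it was 0.94 with exact zeros taken as missing (limma adjusted p = 0.0534) and 0.45 over its probes with no repeated, zero or missing value in skin (limma adjusted p = 0.348). The 3 calcium genes that did not pass were Ryr1, the ryanodine receptor, at 0.88 ± 0.25 (limma adjusted p = 0.0897), Mylk2, the skeletal myosin light chain kinase, at 0.93 ± 0.35 (0.155), and Casq1, the calsequestrin of fast fibres, at 0.37 ± 0.39 (0.61). Casq1 was the single calcium gene whose groups overlapped. The 3 probes of Ryr1 differed by 0.20 to 1.36. One of them read from −0.65 to −0.14 in skin, close to its fibroblast values of −0.51 to −0.37, and lowered the gene's mean. Ryr1 passed in 3 of 17 alternative settings.

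Among filament and Z-disc genes the median difference was 1.34, and 7 of 10 genes did not overlap. Des encodes desmin, the intermediate filament that links Z-discs, which smooth muscle also makes. It read 4.06, 4.65, 4.11 and 4.47 in Tsk2 skin and 2.37, 2.50, 2.26 and 2.99 in WT skin. The groups were more than 1 log2 unit apart at their nearest points, and the difference was 1.79 ± 0.21, or 3.46-fold (limma adjusted p = 0.0229). Ttn, the giant elastic protein titin, read 3.66, 4.04, 3.87 and 4.06 in Tsk2 skin and 2.39, 1.66, 2.53 and 2.70 in WT skin. The difference was 1.59 ± 0.24 (limma adjusted p = 0.0244), but 7 of its 10 probes were listed at 0 on WT skin replicate 2, and its probes ran from −0.41 to 2.82. With exact zeros taken as missing, Ttn differed by 0.55 (limma adjusted p = 0.62), where its mean on that array was taken over fewer probes. Without WT replicate 2 altogether it differed by 1.37 (limma adjusted p = 0.0541). Ldb3, a Z-disc adaptor that binds alpha-actinin, read 3.22, 4.04, 3.52 and 3.56 in Tsk2 skin and 2.29, 2.56, 2.78 and 2.78 in WT skin. The difference was 0.98 ± 0.21 (limma adjusted p = 0.0477), and with exact zeros taken as missing it was 0.66 (limma adjusted p = 0.252).

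The other 7 genes of the filaments and Z-disc did not pass. Acta1, skeletal actin, read 5.49, 6.58, 5.43 and 5.50 in Tsk2 skin and 4.71, 4.59, 4.45 and 4.52 in WT skin, a difference of 1.18 ± 0.26 (limma adjusted p = 0.0519). Neb, the thin filament ruler nebulin, differed by 1.30 ± 0.29 (limma adjusted p = 0.0512), and 3 of its 6 probes were listed at 0 on WT replicate 2. In both genes the groups did not overlap. Myot read 7.47, 9.45, 7.83 and 7.95 in Tsk2 skin and 6.56, 0.00, 6.74 and 6.58 in WT skin, where the 0.00 of replicate 2 stands beside 3 values above 6. Its difference of 3.20 ± 1.43 (limma adjusted p = 0.224) came to 1.55 without WT replicate 2 (limma adjusted p = 0.118). The remaining 4 genes were Xirp1 at 1.49 ± 0.42, Xirp2 at 1.38 ± 0.47, Actn2 at 1.01 ± 0.28 and Tcap at 0.65 ± 0.31. On WT replicate 2 the 3 probes of Xirp2 read 7.21, 0.00 and −3.17. Without that array Xirp2 differed by 0.85 (limma adjusted p = 0.0862), and with exact zeros taken as missing by 0.78 (limma adjusted p = 0.429). Xirp1 and Xirp2 encode actin-binding Xin proteins, Actn2 the alpha-actinin of all fibres, and Tcap the titin cap.

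Both called genes of the energy and stress group encode ankyrin repeat proteins. Ankrd23, which binds titin and responds to stretch, read 3.51, 4.31, 3.78 and 4.11 in Tsk2 skin and 1.56, 1.65, 1.41 and 2.21 in WT skin. The groups lay over 1 log2 unit apart, and the difference was 2.22 ± 0.24, or 4.65-fold (limma adjusted p = 0.0229). Asb5, an ankyrin repeat protein with a SOCS box, read 0.74, 1.50, 1.19 and 1.72 in Tsk2 skin and −1.11, −1.68, −1.26 and 0.11 in WT skin. Its difference of 2.27 ± 0.38, or 4.84-fold, was the largest among the called genes (limma adjusted p = 0.029). The creatine kinases Ckm and Ckmt2 and the oxygen carrier Mb, myoglobin, differed by 0.66 ± 0.37, 0.74 ± 0.39 and 0.53 ± 0.31. None of the 3 passed, and in each the groups overlapped.

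Fast fibre genes were higher in Tsk2 skin by a median of 0.87, yet 1 of 13 passed. That gene, Actn3, the alpha-actinin of fast fibres, read 4.54, 5.92, 4.88 and 5.01 in Tsk2 skin and 3.14, 3.03, 2.59 and 3.57 in WT skin. Its groups lay almost 1 log2 unit apart, and the difference was 2.01 ± 0.32, or 4.02-fold (limma adjusted p = 0.0261). Tsk2 replicate 2 was the highest skin array for all 13 fast fibre genes.

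The 3 adult fast myosin heavy chains had overlapping groups. Myh4, the myosin of the fastest fibres, read 4.60, 6.78, 5.65 and 5.13 in Tsk2 skin and 5.34, 5.12, 5.29 and 4.75 in WT skin. The lowest Tsk2 value lay below all WT values and the highest far above them, and the difference was 0.41 ± 0.42 (limma adjusted p = 0.592). Myh1, which encodes the IIx chain, read 4.12, 4.67, 4.09 and 4.14 in Tsk2 skin and 2.90, 4.35, 3.14 and 3.06 in WT skin, a difference of 0.89 ± 0.32 (limma adjusted p = 0.148). Myh2, the IIa chain, read 6.41, 7.57, 6.36 and 6.07 in Tsk2 skin and 5.68, 6.23, 5.92 and 5.26 in WT skin, a difference of 0.83 ± 0.34 (limma adjusted p = 0.196). WT replicate 2 was the highest WT array for Myh1 and Myh2. For Myh1 this came from 1 of its 2 probes, at 3.92 on that array against 0.66, 1.38 and 1.76 on WT replicates 1, 3 and 4. Its other probe read 4.79 on WT replicate 2, below WT replicates 1 and 3 at 5.14 and 4.90.

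The fast light chains did not overlap between groups. Myl1 read 5.85, 6.79, 5.73 and 5.76 in Tsk2 skin and 5.11, 5.08, 5.09 and 4.63 in WT skin, a difference of 1.05 ± 0.26 (limma adjusted p = 0.0644). Mylpf, the fast regulatory light chain, read 5.45, 6.73, 5.65 and 5.42 in Tsk2 skin and 5.05, 5.16, 4.74 and 4.64 in WT skin, a difference of 0.91 ± 0.30 (limma adjusted p = 0.121). In both genes replicate 2 stood above the other Tsk2 arrays. Mybpc2, the fast myosin-binding protein C, read 4.39, 5.68, 4.67 and 4.70 in Tsk2 skin and 4.12, 4.19, 4.00 and 3.62 in WT skin, a difference of 0.87 ± 0.28 (limma adjusted p = 0.116), without overlap.

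Of the fast troponins, Tnnt3 did not overlap and the other two did. Tnnt3 read 5.82, 7.03, 5.75 and 5.69 in Tsk2 skin and 5.19, 5.59, 5.02 and 4.83 in WT skin, a difference of 0.92 ± 0.32 (limma adjusted p = 0.136). Tnni2 read 4.07, 5.98, 4.95 and 4.91 in Tsk2 skin and 4.51, 4.16, 4.29 and 4.09 in WT skin, a difference of 0.72 ± 0.35 (limma adjusted p = 0.267). Tnnc2, fast troponin C, read 3.77, 5.999, 4.83 and 4.57 in Tsk2 skin and 4.57, 4.04, 4.51 and 3.96 in WT skin, a difference of 0.52 ± 0.42 (limma adjusted p = 0.498). Tsk2 replicate 1 was the lowest of all 8 skin arrays for Tnni2 and Tnnc2.

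The remaining fast fibre genes also stayed short of the threshold. Myoz1, which anchors calcineurin at the Z-disc, read 5.45, 6.53, 5.38 and 5.16 in Tsk2 skin and 4.93, 5.13, 4.59 and 4.47 in WT skin, a difference of 0.85 ± 0.31 (limma adjusted p = 0.148). Atp2a1, the calcium pump of fast fibres, read 4.61, 5.46, 4.37 and 4.33 in Tsk2 skin and 3.80, 4.12, 3.83 and 3.46 in WT skin, a difference of 0.89 ± 0.27 (limma adjusted p = 0.104). Neither gene's groups overlapped. Pvalb read 6.27, 7.35, 6.13 and 5.77 in Tsk2 skin and 5.96, 6.13, 5.79 and 5.05 in WT skin, which overlapped, a difference of 0.65 ± 0.37 (limma adjusted p = 0.33).

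Slow fibre genes had a median difference of 0.44, and 0 of 5 passed, with 2 at an unadjusted p under 0.05. A further list of 5 slow fibre genes, taken up below, had a median of 0.80, with 5 above 0 and 0 passing. With 5 genes in each list, these medians cannot show how slow fibre genes differed in general. Tnnt1, slow troponin T, read −0.41, 0.10, −0.04 and 0.06 in Tsk2 skin and −0.75, −1.16, −1.53 and −0.60 in WT skin. It was the single slow gene without overlap, with a difference of 0.94 ± 0.23 (limma adjusted p = 0.0644). Tnni1 read −0.34, −1.28, −0.68 and −0.30 in Tsk2 skin and 0.48, 0.97, 0.52 and −0.51 in WT skin. Here 3 of 4 WT arrays lay above all Tsk2 arrays, and WT replicate 4 fell among them. Its difference of −1.02 ± 0.34 was the single one below 0 among the 42 genes (limma adjusted p = 0.126), and it was −1.31 without WT replicate 4 (limma adjusted p = 0.0284). Both of its probes read lower in Tsk2 skin, with log2 differences of −1.03 and −1.01.

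Myh7 varied most among the slow genes, reading 1.32, 0.30, −1.08 and −0.30 in Tsk2 skin and −1.18, −2.24, 1.75 and −2.22 in WT skin. WT replicate 3 held the highest value of the 8, and the difference of 1.03 ± 0.90 was about as large as its error (limma adjusted p = 0.529). Tnnc1 read −1.51, −1.04, −0.997 and −1.12 in Tsk2 skin and −1.52, −2.16, −0.85 and −1.90 in WT skin, a difference of 0.44 ± 0.28 (limma adjusted p = 0.391). Mybpc1, the slow myosin-binding protein C that fast fibres also use, read 3.85, 4.47, 4.01 and 3.64 in Tsk2 skin and 3.35, 4.57, 3.59 and 3.10 in WT skin, a difference of 0.34 ± 0.33 (limma adjusted p = 0.569). Both genes overlapped between groups.

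Averaged over genes, the fast list stood at 5.44 ± 0.61 in Tsk2 skin and 4.55 ± 0.23 in WT skin (SD, n = 4 each). Per array the means were 5.03, 6.35, 5.26 and 5.13 in Tsk2 skin and 4.64, 4.79, 4.52 and 4.26 in WT skin, without overlap. The slow list stood at 0.43 ± 0.15 in Tsk2 skin and 0.09 ± 0.46 in WT skin, with arrays at 0.58, 0.51, 0.24 and 0.40 against 0.08, −0.00, 0.70 and −0.43. The slow means overlapped, since WT replicate 3 was the highest of all 8. A ratio to the reference depends on how much of each RNA the reference holds, so the gap between the lists is not a ratio of fast to slow RNA, and only its change between groups can be read.

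The fast mean minus the slow mean was 5.01 ± 0.60 in Tsk2 skin and 4.47 ± 0.44 in WT skin (SD, n = 4 each). Per array it was 4.45, 5.84, 5.02 and 4.73 in Tsk2 skin and 4.56, 4.80, 3.83 and 4.69 in WT skin. The groups overlapped, and the change of 0.54 was below the SD of the Tsk2 arrays (0.60) and above that of the WT arrays (0.44). Setting aside Tsk2 replicate 2 left a change of 0.26, and setting aside WT replicate 3 a change of 0.33. In fibroblasts the same quantity was 0.02 ± 0.23 with Tsk2 Col3a1 and −0.28 ± 0.09 with WT Col3a1 (SD, n = 3 each).

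**Figure D3:**
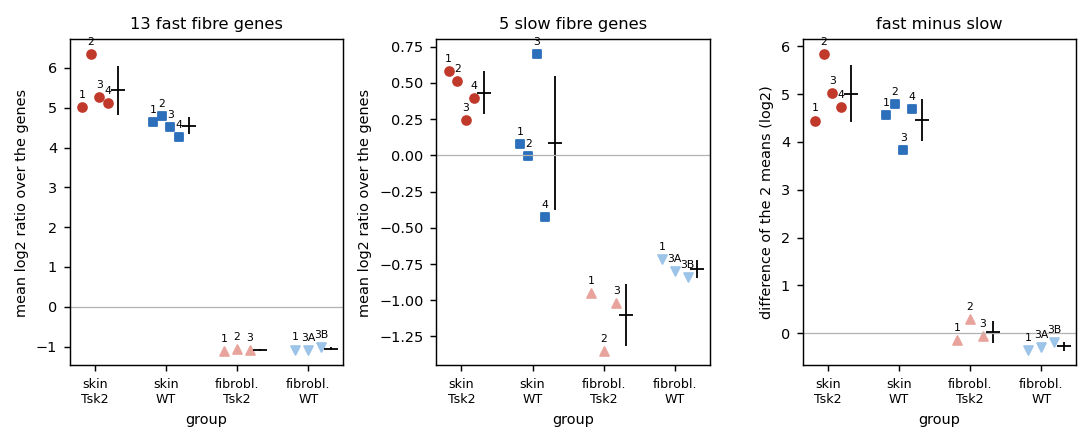
Mean log2 ratio per array over the 13 fast fibre genes (left), over the 5 slow fibre genes (middle) and their difference (right, log2), by group (horizontal axis). Points are arrays labelled by replicate, and the bar beside them is the mean with its SD. The fast means of the 4 Tsk2 skin arrays (5.03 to 6.35) lie above those of the 4 WT skin arrays (4.26 to 4.79), while the slow means and the differences overlap.

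The difference was seen in each of the 4 Tsk2 mice, although Tsk2 replicate 2 was the highest of the 8 skin arrays for 33 of the 42 genes. The mean over all 42 genes was 3.91, 4.79, 4.04 and 4.08 in Tsk2 replicates 1 to 4 and 3.13, 3.06, 3.11 and 3.05 in WT replicates 1 to 4. Tsk2 replicates 1 to 4 lay above a gene's own median over the 8 arrays in 35, 41, 38 and 33 genes. WT replicates 1 to 4 did so in 4, 10, 5 and 1 genes. Among the 12 called genes, Tsk2 replicate 2 was highest for 8 and Tsk2 replicate 4 for 4. WT replicate 4 was the lowest array for 16 of the 42 genes.

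Called genes lay mostly in the lower part of the range of ratios. Of the 21 genes with the higher mean log2 ratio over the 8 skin arrays, from 3.82 to 6.57, 1 passed and the median difference was 0.85. Of the 21 genes with the lower mean, from −1.39 to 3.81, 11 passed and the median difference was 1.44. The first set held 12 of the 13 fast fibre genes, all but Myh1. The second held all 6 called calcium genes and also Des, Ttn, Ldb3, Ankrd23 and Asb5. These ratios depend on the reference as well as on the skin, and intensities were not used here.

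**Figure D4:**
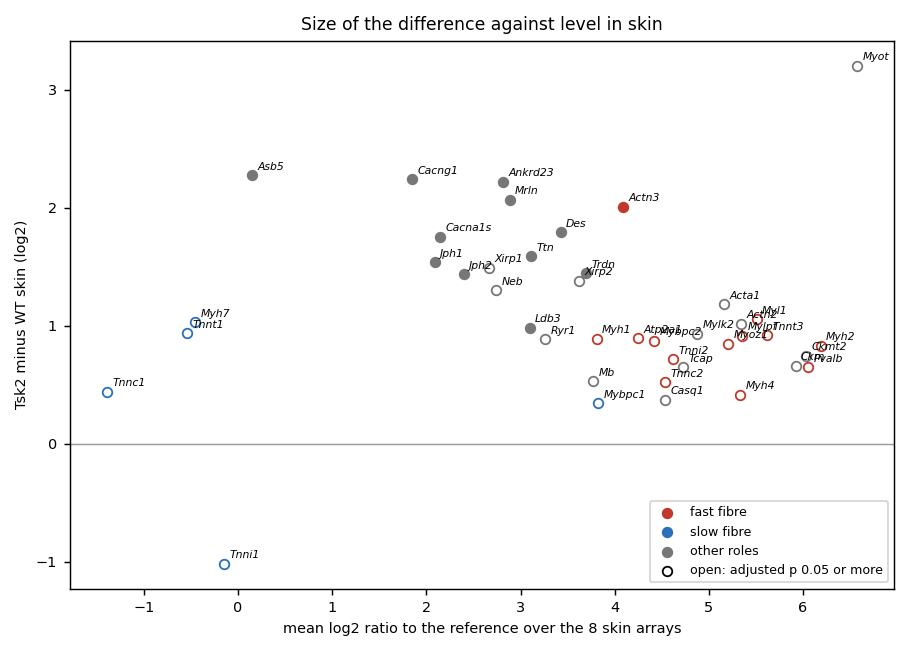
Tsk2 minus WT difference in skin (vertical axis, log2) against the mean log2 ratio to the reference over the 8 skin arrays (horizontal axis), with 1 point per gene coloured by fibre type. Filled points passed an adjusted p under 0.05. Of the 12 filled points, 11 belong to the 21 genes of lower mean ratio, and Tnni1 is the single point below 0.

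In transfected fibroblasts, 0 of 42 muscle genes passed in limma, where 0.0154% of all genes were called higher and 0.0358% lower. There were 19 genes above 0 and 23 below, the median difference was −0.05, and 7 of the 42 genes had an unadjusted p under 0.05, as did 2186 of all 19532 genes. Only 12 of the 42 genes were free of repeated values, which mark dim probes, in fibroblasts. For genes whose fibroblast values were mostly repeated, the test cannot show that a difference was absent. The lowest p belonged to Acta1, which read 1.95, 2.10 and 2.18 with Tsk2 Col3a1 and 1.68, 1.38 and 1.28 with WT Col3a1. Its groups did not overlap, and the difference was 0.63 ± 0.14 (limma adjusted p = 0.278). In all, 2 of the 42 genes were higher without overlap and 5 lower, where 9.81% and 10.2% of all genes were. Tnnc1 differed by −0.43 ± 0.14 and Mrln by −0.51 ± 0.16 (limma adjusted p = 0.378 for each). For Tnnc1 the cells with Tsk2 Col3a1 read 0.53, 0.12 and 0.13 and those with WT Col3a1 0.68, 0.75 and 0.65. For Mrln they read −2.15, −1.59 and −1.97 against −1.41, −1.30 and −1.48. Both sets were lower with Tsk2 Col3a1, without overlap.

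The Tsk2 difference in skin exceeded that in fibroblasts for 6 of 42 genes and was below it for 0, by limma's test of the difference over all 14 arrays, where 0.901% of all genes were called higher and 0.497% lower. This fit shares 1 variance per gene between mice and transfected samples, whose spreads may differ. The differences are also unlike in kind, between mice in skin and between transfected constructs in knockout cells. Mrln differed most, by 2.58 ± 0.45 (SE, limma adjusted p = 0.0231), with 2.07 in skin and −0.51 in fibroblasts. Asb5 followed at 2.57 ± 0.50 (0.0342) and Actn3 at 2.25 ± 0.40 (0.0248). The others were Ankrd23 at 1.99 ± 0.32 (0.0203), Des at 1.83 ± 0.27 (0.0163) and Ttn at 1.55 ± 0.31 (0.0362). Of the 6 genes, Ttn alone had repeated values in fibroblasts, on all of its probes. Its fibroblast difference therefore cannot be read as a lack of change. The number of genes was 0 when fibroblast Tsk2 replicate 1 or 2 or fibroblast WT replicate 3A or 3B was left out. It was 1 without fibroblast WT replicate 1, 2 without fibroblast Tsk2 replicate 3, skin Tsk2 replicate 4 or skin WT replicate 1, 3 without skin WT replicate 3, and 10 without skin WT replicate 4.

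Muscle genes outside the 42 were called in the same direction in skin. Of 98 measured genes of a wider list, 24 were higher in Tsk2 skin in limma and 0 lower, with a median difference of 0.86. None of them was called in the 6 fits that left out a mouse and called 0 genes on the whole array. The lists were chosen with earlier results of these data known. Of 18 glycogen and energy genes 8 were called, led by Cox7a1 at 1.82 ± 0.16, Cox6a2 at 2.31 ± 0.22 and the phosphofructokinase Pfkm at 2.02 ± 0.21 (limma adjusted p = 0.0228, 0.0228 and 0.0229). Cox7a1 and Cox6a2 encode the muscle and heart forms of respiratory chain subunits. Of 19 further excitation and calcium genes 4 were called, with Srl (sarcalumenin) at 1.49 ± 0.19, Stac3, which the voltage sensor needs to work, at 1.82 ± 0.25 and the channel's beta subunit Cacnb1 at 1.59 ± 0.24 (limma adjusted p = 0.0229, 0.0229 and 0.0244). Of 28 further sarcomere and Z-disc genes 7 were called, among them the thin filament cap Tmod1 at 1.50 ± 0.20, the tropomyosin Tpm2 at 1.34 ± 0.20 and the actin-binding Synpo2 at 1.03 ± 0.16 (limma adjusted p = 0.0229, 0.0244 and 0.0261). Of 11 dystrophin complex and membrane repair genes 4 were called, with alpha-sarcoglycan, Sgca, at 1.58 ± 0.19, sarcospan, Sspn, at 1.29 ± 0.22 and dysferlin, Dysf, at 1.15 ± 0.19 (limma adjusted p = 0.0229, 0.029 and 0.029). In fibroblasts limma called 0 of the 98 genes, and 16 had an unadjusted p under 0.05.

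Of the myogenic regulators, 1 of 12 passed. Myog, the differentiation factor myogenin, read 1.40, 2.08, 2.41 and 2.78 in Tsk2 skin and 0.04, −0.36, −0.46 and 0.88 in WT skin, without overlap. Its difference was 2.14 ± 0.37, or 4.42-fold (limma adjusted p = 0.0305). Myf6 read 4.44, 5.08, 4.73 and 4.87 against 2.76, 0.00, 2.17 and 3.57, with WT replicate 2 at exactly 0, a difference of 2.65 ± 0.66 (limma adjusted p = 0.0644). Myod1 differed by 0.74 ± 0.25, Myf5 by 0.30 ± 0.27 and Pax7 by −0.26 ± 0.25, and none of them passed. All Pax7 values in skin were repeated values.

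In skin limma called 0 of 5 developmental myosin and actin genes and 0 of 5 further slow fibre genes, with 3 and 2 of them at an unadjusted p under 0.05. Embryonic myosin, Myh3, read −0.10, −0.43, 0.76 and 1.04 in Tsk2 skin and −1.76, −2.44, −0.57 and −0.97 in WT skin. The groups did not overlap, although the lowest Tsk2 array and the highest WT array lay close, and the difference was 1.75 ± 0.47 (limma adjusted p = 0.0766). Perinatal myosin, Myh8, differed by 0.37 ± 0.24 (limma adjusted p = 0.392). The slow light chains Myl2 and Myl3 differed by 0.86 ± 0.44 and 0.51 ± 0.20 (limma adjusted p = 0.277 and 0.171).

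Markers of other cell types did not all stay level in the same skin arrays. Hair follicle and shaft markers averaged 4.37, 0.72, 3.34 and 0.69 in Tsk2 replicates 1 to 4 and 6.44, 6.23, 6.27 and 4.96 in WT replicates 1 to 4. All 10 of them differed below 0, and 4 passed in limma. Dermal fibroblast markers averaged from 2.82 to 3.07 in Tsk2 skin and from 1.65 to 2.53 in WT skin, with 8 of 8 above 0 and 1, Lum, passing at 1.35 ± 0.25 (limma adjusted p = 0.0356). Smooth muscle markers, 0 of 7 passing, averaged from 1.17 to 1.62 in Tsk2 skin and from 1.02 to 1.27 in WT skin. Of 5 cardiac markers, Nppb passed lower at −1.15 ± 0.22 (limma adjusted p = 0.0369), and the list averaged from −0.63 to 0.00 in Tsk2 skin and from −0.39 to −0.15 in WT skin. Adipocyte, epidermis, endothelium, Schwann cell and macrophage markers had 0 calls. Above 0 were 7 of 7, 7 of 8, 5 of 5, 3 of 3 and 4 of 4 genes in that order. Their median differences were 0.435, 0.347, 0.253, 0.537 and 0.403, against 0.03 over all genes. The Schwann cell list had 3 of its 6 genes measured. Adipocyte markers averaged from 4.62 to 5.47 in Tsk2 skin and from 4.42 to 4.81 in WT skin, and epidermal markers from 3.99 to 5.34 and from 4.01 to 4.40. Endothelial markers averaged from 2.38 to 2.81 in Tsk2 skin and from 1.25 to 2.23 in WT skin, Schwann cell markers from 2.59 to 2.84 and from 2.11 to 2.49, and macrophage markers from 2.91 to 3.16 and from 1.99 to 3.18. Tsk2 replicate 2, the highest array for most muscle genes, was also the highest for the adipocyte and epidermal lists. The part of these markers in the muscle gene differences was not tested.

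Promoter sequences from RefSeq (GRCm38.p6) were matched by symbol for 30 of the 42 genes, in 40 windows from 250 bases before a gene's start to 50 after it. Motifs bound by muscle regulators were searched on both strands. The E-box CAGCTG, a form favoured by the MyoD family, was in 18 of the 40 windows (45.0%), against 16.3% of all 32851 windows in the table. The general E-box CANNTG, which includes it, was in 82.5% against 72.3%. A MEF2 motif was in 15.0% against 3.19%, a CArG box in 12.5% against 1.63%, and the M-CAT motif CATTCC in 27.5% against 14.7%. A match is a description of the letters and not a binding site. The 250 bases before the start are shown for 3 genes called higher in Tsk2 skin (Des, Cacna1s and Asb5), for the fast myosin Myh4 and for Tnni1, the gene with a difference below 0. Capitals mark E-boxes CANNTG, MEF2 motifs and CArG boxes on either strand, and all 5 stretches are read on the plus strand. The stretches lie at chr1:75360042-75360291 for Des, chr1:136052561-136052810 for Cacna1s, chr8:54550081-54550330 for Asb5, chr11:67237562-67237811 for Myh4 and chr1:135799171-135799420 for Tnni1. For Asb5 the first of 3 starts was taken and for Tnni1 the first of 2.
Des: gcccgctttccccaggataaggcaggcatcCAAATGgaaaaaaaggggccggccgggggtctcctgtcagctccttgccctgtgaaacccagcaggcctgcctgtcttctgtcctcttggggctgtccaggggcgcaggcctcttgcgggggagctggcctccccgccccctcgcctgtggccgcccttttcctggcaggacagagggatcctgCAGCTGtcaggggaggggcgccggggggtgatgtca
Cacna1s: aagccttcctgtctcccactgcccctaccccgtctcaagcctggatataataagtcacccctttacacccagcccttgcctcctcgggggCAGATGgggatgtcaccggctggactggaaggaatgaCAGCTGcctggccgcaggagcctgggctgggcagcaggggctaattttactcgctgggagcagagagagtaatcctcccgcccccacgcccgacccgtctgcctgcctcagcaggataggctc
Asb5: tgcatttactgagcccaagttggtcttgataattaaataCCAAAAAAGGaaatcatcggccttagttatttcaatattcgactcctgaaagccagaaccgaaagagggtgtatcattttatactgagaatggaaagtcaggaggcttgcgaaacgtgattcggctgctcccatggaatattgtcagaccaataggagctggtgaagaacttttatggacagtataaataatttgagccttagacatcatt
Myh4: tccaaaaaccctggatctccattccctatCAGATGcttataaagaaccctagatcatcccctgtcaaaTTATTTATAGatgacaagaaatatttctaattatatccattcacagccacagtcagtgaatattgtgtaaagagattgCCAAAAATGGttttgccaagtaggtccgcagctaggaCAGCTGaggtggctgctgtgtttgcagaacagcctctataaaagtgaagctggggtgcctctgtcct
Tnni1: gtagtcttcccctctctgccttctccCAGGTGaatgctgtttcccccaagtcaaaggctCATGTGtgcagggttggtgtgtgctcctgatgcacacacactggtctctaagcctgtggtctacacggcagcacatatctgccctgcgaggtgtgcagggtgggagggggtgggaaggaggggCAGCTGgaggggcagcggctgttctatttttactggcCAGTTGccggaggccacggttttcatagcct
The stretches of Des, Cacna1s, Myh4 and Tnni1 each hold 1 CAGCTG. The stretch of Myh4 holds a MEF2 motif and a CArG box as well, and that of Asb5 a CArG box alone. Tnni1 holds 4 E-boxes in its stretch, and Des, Cacna1s and Myh4 hold 2 each. With the 50 bases after the start, the window of Asb5 holds 2 E-boxes, 1 of them CAGCTG, and that of Myh4 holds 3. The windows of Des, Cacna1s and Tnni1 hold as many as their stretches.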

How the data were processed

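The deposited values are log ratios of sample to reference, read here as log2 of Cy5 over Cy3 from the dyes in the labels; no source used here states the base. They ran from −9.55 to 10.97 with column medians of 0 to 0.043, so arrays appear centred. The sources used here do not give the authors' background correction or normalization. From 33.8% to 46.7% of an array's probes held a value found at least 50 times on it (a repeated value), and WT skin replicate 2 listed 12391 probes (30.1%) at exactly 0, against 312 to 4796 elsewhere. Such zeros can be failed estimates.

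Of 41174 probes, GEO's platform annotation gave 1 symbol to 32664 and several to 45, and it did not list 8465. The 42 symbols matched RefSeq. Columns without a sample numbered 0, and 0 pairs of arrays were identical. Fits used limma 3.58.1 under R 4.3.3 (lmFit and eBayes, two-sided, Benjamini-Hochberg threshold 0.05 over 19532 genes), Tsk2 against WT on the arrays of 1 system and the contrasts between systems on all 14. The fit was tested on simulated data. A gene needed values on 3 arrays of each skin group and 2 of each fibroblast group. All members are named, with full values for fast and slow genes and for those called or, in fibroblasts, the 3 of lowest p. Other muscle genes were the 3 of lowest p per list plus fixed regulators and myosins. Members and lists were chosen with earlier results of these data known, and the 0.00 of Myot and further uncalled genes given per array were picked after their values were seen. Alternatives covered centring, normalization, probe choice, zeros, dim probes, array weights, the variance prior, the arrays fitted and single arrays left out. Batches were not tested, since neither scanner intensities nor slide and scan records were used. The number of arrays limits the precision.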

Additional observations from a re-analysis of the deposited data

Results flagged for a closer look

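Of 92 sets of 4 skin arrays of 1 genotype tested, which were the 42 genes and their means by fibre type, 9 held an array far from the other 3, where chance gives about 1 in 20. In Tsk2 replicate 2 the log2 ratio was 4.67 for Myh1, 6.79 for Myl1, 7.03 for Tnnt3 and 6.58 for Acta1, each far above the other Tsk2 arrays. In WT replicate 4 it was 4.63 for Myl1 and 4.91 for Ckm, each far below the other WT arrays. WT replicate 2 stood apart at 4.35 for Myh1, above the others, and at 0.00 for Myot and 1.34 for Xirp2, below them. On that array the 3 probes of Xirp2 read 7.21, 0.00 and −3.17. Of the 2 probes of Myh1, 1 lay below WT replicates 1 and 3 there.

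The Tsk2 difference was larger in skin than in fibroblasts for 6 genes by limma's test of the difference, with the variance shared between systems. It was larger by 2.25 for Actn3, 1.55 for Ttn, 1.83 for Des, 2.58 for Mrln, 1.99 for Ankrd23 and 2.57 for Asb5 on the log2 scale.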

How the results depend on the processing

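None of the 42 gene-level differences changed sign in skin under the alternatives run, although that of Myh4 was 0.0019 without Tsk2 replicate 2. The number called higher in skin, 12 in the reported fit, was 25 with quantile normalization, 22 with 1 fit over all 14 arrays and 9 to 16 under the other settings. It was 14 of 39 genes on probes with no repeated, zero or missing value, an alternative chosen after seeing the data. Leaving out 1 mouse gave 0 to 15 higher and 0 to 1 lower. Taking each gene's most variable probe gave a median difference of 1.18. Ttn, Ldb3, Cacna1s and Trdn were no longer called with exact zeros taken as missing. That setting left fewer probes in their means on WT skin replicate 2.

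The difference between systems, 6 genes in the reported fit, was 13 with array weights and 0 to 10 with 1 array left out. In the fibroblasts 0 of the 42 genes passed under every setting run. For genes at mostly repeated values there, this does not show that a difference was absent. With a replicate block by transfection number, which only the labels' numbers 1 and 3 share, limma called 0 genes on the whole array, with 1812 at an unadjusted p under 0.05. Averaging WT replicates 3A and 3B into 1 sample also gave 0 calls, with 1478 at an unadjusted p under 0.05. Skin against fibroblasts held 38 to 40 genes higher and 1 lower. The change in fast minus slow, 0.54, ran from 0.26 to 0.73 with 1 mouse left out and from 0.45 to 0.66 otherwise.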
